A study of Mus musculus with 9 samples.

Results

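Keratin transcripts of simple and stratified epithelium were followed in organoids of normal mouse small intestine and in intestinal tumoroids. The 10 keratins were chosen by name: Krt8, Krt7, Krt18, Krt19, Krt20 and Krt23 of simple and differentiated epithelium, and Krt5, Krt14, Krt17 and Krt4 of stratified or basal epithelium. They are 10 of the 50600 genes in the table, which holds 54 keratin genes in all, and 16208 genes, the 10 keratins among them, reached at least 1 TPM (a length-normalised share of transcripts) in at least 1 library and were tested. TPM is a level per unit of transcript length, so that levels of different genes can be compared within it. Krt14, Krt5, Krt4 and Krt17 passed this filter through the tumoroids alone. For a gene that enters a test in this way, at least 1 tumoroid had to lie above every organoid in TPM, although the gene need not pass.

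Keratins are the intermediate filament proteins of epithelial cells. A filament needs a type I and a type II keratin in equal amounts, and each epithelium uses its own pairs. Krt8 (type II) and Krt18 (type I) form the first pair of simple epithelia, and intestinal cells add the type I keratins Krt19 and Krt20, the latter known as a marker of differentiated villus cells. Krt5 (type II) and Krt14 (type I) form the pair of basal cells in stratified epithelia such as skin and oesophagus.

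The 9 RNA-sequencing libraries fell into 3 groups of 3. WT organoids of strain C57BL/6 were grown for 24 hr with 50% conditioned medium, which according to the titles came from tumoroids (T-cM-titled) or from organoids (WT-cM-titled). The treatment field of the same 6 libraries names the opposite medium, so every difference between the organoid groups below follows the titles and changes sign under the other label. Tumoroids came from tumours of Apc1638N/+ mice, strain MIX, and were untreated. The submitters name 3 different mice for the organoids and 3 for the tumoroids, and the methods give a mixed genetic background for all mice. According to the methods, tumoroids grew without R-spondin, unlike the organoids, and came from older mice. Genotype, strain, age, medium and tumour origin therefore cannot be told apart in the comparison of tumoroids with organoids.

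Counted reads per library ranged from 16541635 to 25170966, and 3 counts, taken as the floor of detection, corresponded to 0.103 to 0.204 CPM. CPM are reads of a gene relative to the counted reads of the tested genes in its library, not divided by length. The library size was first multiplied by a scaling factor (TMM) of 0.8895 to 0.9617 in organoids and 1.185 to 1.215 in tumoroids. These factors raise the CPM of organoids and lower those of tumoroids beside unscaled values. As a check of the labelled epithelium, 5 general epithelial markers summed to 2863 to 3334 TPM in organoids and 2651 to 2985 TPM in tumoroids. The 5 enterocyte markers summed to 25450 to 56430 TPM in organoids and 45.7 to 324 TPM in tumoroids. The 5 squamous markers (Trp63, Krt5, Krt14, Ivl and Sfn) summed to 171 to 318 TPM in organoids (median 230) and 83.0 to 635 TPM in tumoroids (median 120). In organoids only 1 of these 5, Sfn, reached 1 TPM. The mesothelium markers summed to 3.84 to 20.6 TPM in organoids and 8.91 to 21.2 TPM in tumoroids, and the endothelium markers to at most 1.68 TPM. Of 7 fibroblast markers, Col3a1 and Lum had 0 counts in both kinds of culture and the sum was at most 1.5 TPM. The 4 immune markers summed to 1.02 to 2.77 TPM in organoids and 13.8 to 61.6 TPM in tumoroids, with Cd3e at 0 counts. Cd68 (11.9, 16.6 and 58.3 TPM) and Csf1r (1.82, 15.6 and 3.3 TPM in tumoroids 1, 2 and 3) carried this sum, and Ptprc, found on all white blood cells, was at most 0.14 TPM in any library. The 3 smooth muscle markers summed to 0 to 1.24 TPM in organoids and 3.93 to 92.6 TPM in tumoroids, highest in tumoroid 3, and nearly all of it was Acta2. The 7 gastric markers summed to 2.88 to 21.9 TPM in organoids and 7.52 to 11.4 TPM in tumoroids, with Gkn2 at 0 counts in tumoroids. Of these, Muc5ac had 388, 52 and 283 counts and Muc6 had 169, 447 and 8 counts in tumoroids 1, 2 and 3, and both had 0 counts in organoids. According to the methods, tumours near the ampulla were left out to keep stomach cells away. The part of these cells in the keratin differences was not tested. In bulk RNA, fewer cells of a type and less RNA per cell cannot be told apart.

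All 10 genes lie in the 2 keratin clusters of the mouse genome (GRCm38). Krt20 (chr11:99428403-99438150, minus strand), Krt23 (chr11:99477974-99493137), Krt19 (chr11:100140810-100148665), Krt14 (chr11:100203162-100207548) and Krt17 (chr11:100256217-100261029) lie in the type I cluster. Krt7 (chr15:101411043-101430313, plus strand), Krt5 (chr15:101707070-101712898), Krt4 (chr15:101918535-101924735) and Krt8 (chr15:101996698-102004482, minus strand) lie in the type II cluster. Krt18 (chr15:102028180-102032027, plus strand) is the exception, a type I gene beside its type II partner Krt8.

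RefSeq promoter sequences, from 250 bases before to 50 bases after the start site on GRCm38.p6, were found for 7 of the 10 keratins. The 3 shown belong to Krt20, which fell most in tumoroids, and to the neighbours Krt8 and Krt18, of which Krt18 rose there and Krt8 fell on the scale of counts but did not pass on that of TPM. They are Krt20 (chr11:99438104-99438403, minus strand), Krt8 (chr15:102004293-102004592, minus strand) and Krt18 (chr15:102027966-102028265, plus strand), each read 5′ to 3′ along its gene, and capitals mark matches to the letters searched.
Krt20: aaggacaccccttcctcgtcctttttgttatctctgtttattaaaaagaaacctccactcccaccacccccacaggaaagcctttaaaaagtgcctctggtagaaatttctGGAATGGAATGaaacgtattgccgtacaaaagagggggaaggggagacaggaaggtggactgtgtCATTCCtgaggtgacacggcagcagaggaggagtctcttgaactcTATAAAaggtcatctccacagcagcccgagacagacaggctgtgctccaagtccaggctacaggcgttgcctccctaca
Krt8: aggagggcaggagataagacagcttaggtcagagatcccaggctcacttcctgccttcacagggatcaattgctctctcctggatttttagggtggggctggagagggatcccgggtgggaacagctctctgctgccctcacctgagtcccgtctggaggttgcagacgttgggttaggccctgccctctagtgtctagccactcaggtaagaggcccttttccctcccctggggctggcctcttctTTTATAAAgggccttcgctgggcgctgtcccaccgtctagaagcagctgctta
Krt18: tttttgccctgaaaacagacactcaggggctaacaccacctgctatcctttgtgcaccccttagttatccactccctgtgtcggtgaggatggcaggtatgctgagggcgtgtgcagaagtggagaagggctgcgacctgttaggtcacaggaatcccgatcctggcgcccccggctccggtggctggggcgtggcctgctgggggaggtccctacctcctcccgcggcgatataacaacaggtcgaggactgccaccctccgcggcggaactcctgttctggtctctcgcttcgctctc
Each window was searched on both strands for the core letters that TEAD factors are known to bind, GGAATG, and for those of the AP-1 dimer, which as searched here were written TGANTCA with any base in the middle. The third search was for the letters of the TATA box found before many start sites, TATAAA. Of the 7 windows, TEAD letters were found in those of Krt20 and Krt14 (1 match), TATA letters in those of Krt20 and Krt8, AP-1 letters in none, and none of the 3 in those of Krt23, Krt7, Krt5 and Krt18. The windows of Krt14 and Krt7 lie inside the annotated genes, away from the outermost start, and are not shown. The Krt20 window held 3 matches to the TEAD letters, of which the first 2 overlap, and 1 match to the TATA letters shortly before the start site. The capitals in Krt8 are 2 overlapping TATA matches, 1 on each strand. Among all 32851 promoters of this length, 14.7% held the TEAD letters, 7.81% those of AP-1 and 13.6% those of the TATA box. A match is a description of the letters and not a bound site.

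Krt8 and Krt19 were the most abundant keratin transcripts in organoids, and Krt8 and Krt18 in tumoroids. In T-cM-titled organoids the mean level was 5458 ± 1115 TPM for Krt8, 3404 ± 533 TPM for Krt19, 976 ± 322 TPM for Krt18 and 958 ± 227 TPM for Krt20 (SD, n = 3). Krt23 at 161 ± 59.4 TPM and Krt7 at 89.1 ± 26.4 TPM followed, and Krt14, Krt4, Krt5 and Krt17 were below 1 TPM. In WT-cM-titled organoids the order was the same down to Krt7, except that Krt20 (970 ± 154 TPM) stood before Krt18 (887 ± 134 TPM). Krt18 and Krt20 differed by less than their spread in both groups, and the ranges of Krt23 and Krt7 overlapped in both. Neighbours among Krt14, Krt4 and Krt5 in the T-cM-titled group, and Krt5 and Krt4 in the WT-cM-titled group, did not differ beyond their spread either.

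In tumoroids Krt8 (4356 ± 403 TPM) was followed by Krt18 (3435 ± 606 TPM) and Krt19 (2115 ± 124 TPM), and the ranges of Krt8 and Krt18 overlapped while those of Krt18 and Krt19 did not. Krt23 (440 ± 245 TPM) and Krt7 (369 ± 65.3 TPM) came next and overlapped each other. Krt14 (151 ± 230 TPM), Krt4 (76.6 ± 20.7 TPM), Krt5 (10.01 ± 16.03 TPM), Krt20 (7.24 ± 6.53 TPM) and Krt17 (1.99 ± 2.17 TPM) closed the order, and each of them overlapped its neighbour in this order except Krt4 and Krt5. The SD of Krt14, Krt5 and Krt17 exceeded their mean. The TPM of Krt7 is a low estimate, because the authors' values correspond to a length of 7055 bases, near the 7049 bases of all its annotated exons, whereas its longest coding transcript has 4094 bases.

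**Figure D1:**
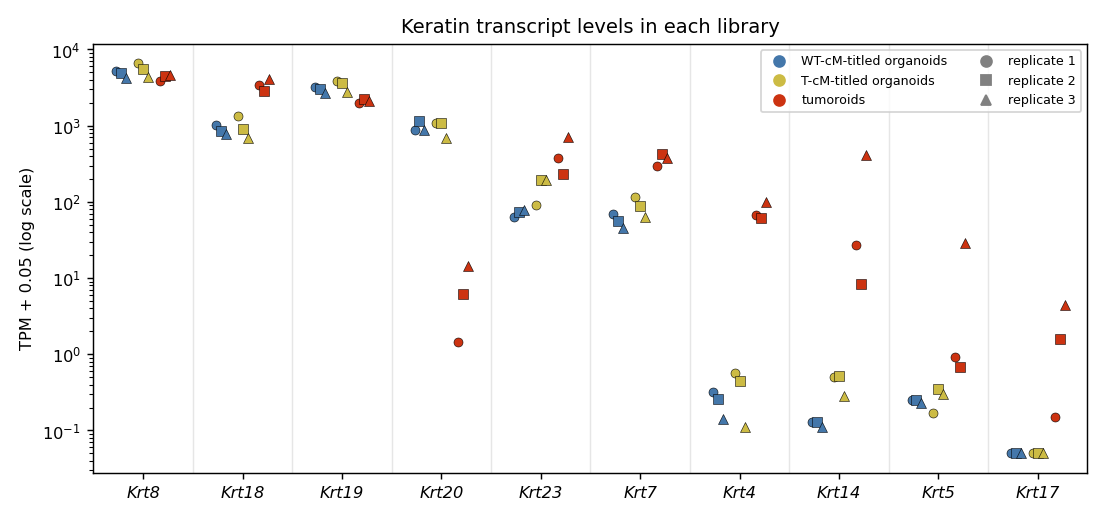
Level of each keratin in each library as TPM plus 0.05 on a log axis, coloured by group, with the symbol giving the replicate number. Krt20 lies far lower in the 3 tumoroids, Krt18 and Krt7 lie higher in each, and Krt14 and Krt5 are highest in tumoroid 3.

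Between the organoid groups, 2 of the 10 keratins rose, Krt23 and Krt7, and none fell, by edgeR as by DESeq2 and limma voom, although DESeq2 gave no adjusted p for the 4 stratified keratins. A gene passed at an adjusted p under 0.05 in edgeR's quasi-likelihood test with replicate number as a block, adjusted over all genes tested. At an unadjusted p under 0.05, 5 keratins were higher and 0 lower, beside 3568 of all 16208 genes in either direction. By the adjusted rule 5.03% of all genes were higher and 5.05% were lower in the T-cM-titled libraries. Krt23, Krt7 and Krt14 lay above every WT-cM-titled library in every T-cM-titled one, against 5.12% of all genes. The median difference of the 10 keratins was 0.18 on the log2 scale, against 0 for all genes.

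Krt23, a type I keratin, rose in all 3 pairs. Its level was 56.1, 124 and 129 CPM in T-cM-titled replicates 1, 2 and 3 and 37.9, 48.3 and 54.3 CPM in the WT-cM-titled ones. The groups did not overlap, replicate 1 had the lowest value in both, and its difference was the smallest of the 3 pairs. The log2 difference was 1.08 (SE 0.11, adjusted p = 6.28e-08 by edgeR), higher in 3 of 3 pairs. Krt23 was the only one of the 10 keratins that also had a log2 difference above 1, a rule passed by 0.673% of all genes.

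Krt7, a type II keratin of ducts and other simple epithelia, was at 316, 256 and 186 CPM in T-cM-titled replicates 1, 2 and 3 and at 184, 164 and 138 CPM in the WT-cM-titled ones. The lowest T-cM-titled value and the highest WT-cM-titled value nearly touched, and the replicates kept the same order in both groups. Krt7 was higher by 0.63 on the log2 scale (SE 0.08, adjusted p = 2.7e-06 by edgeR) in 3 of 3 pairs.

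Both calls rested on the pairing and on replicate 2. Without the block the adjusted p was 0.699 for Krt23 and 0.823 for Krt7, and without replicate 2 it was 0.222 for both, with log2 differences of 0.92 and 0.61. On TPM with limma it was 0.276 for both with a pseudocount of 1, with log2 differences of 1.07 and 0.63. It was 0.292 for both with a pseudocount of 0.1, and no gene at all passed on TPM with either pseudocount.

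The abundant keratins were not called. Krt8 was at 4593, 4033 and 3274 CPM in T-cM-titled and 3573, 3667 and 3312 CPM in WT-cM-titled replicates 1, 2 and 3. Krt8 differed by 0.17 (log2, SE 0.07, adjusted p = 0.119), and its first pair carried most of the difference. Krt19 behaved alike with 2741, 2722 and 2178 CPM against 2271, 2374 and 2190 CPM (log2 difference 0.17, adjusted p = 0.135). Both were higher in 2 of 3 pairs, and their groups overlapped.

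Krt18, the partner of Krt8, was at 723, 513 and 410 CPM against 552, 498 and 473 CPM in replicates 1, 2 and 3 (log2 difference 0.09, adjusted p = 0.612). Krt20 was at 819, 849 and 562 CPM against 649, 922 and 740 CPM (log2 difference −0.047, adjusted p = 0.832). The pairs of Krt20 went different ways, and without replicate 1 it was lower by 0.25 on the log2 scale with an adjusted p of 0.0168. Without replicate 1 the difference of Krt18 was −0.070, and without replicate 3 that of Krt20 was 0.11, both with the opposite sign.

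The stratified keratins were at the edge of detection in organoids. Krt14 had 6, 5 and 3 counts in T-cM-titled replicates 1, 2 and 3 and 1 count in each WT-cM-titled library. These groups did not overlap, but Krt14 did not pass (adjusted p = 0.181). Krt4 had 1 to 8 counts and Krt5 had 2 to 4 counts per organoid library, with adjusted p of 0.713 and 0.957. Krt17 had 0 counts in all 6 organoid libraries, and 3 counts in the shallowest of them would be 0.204 CPM.

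**Figure D2:**
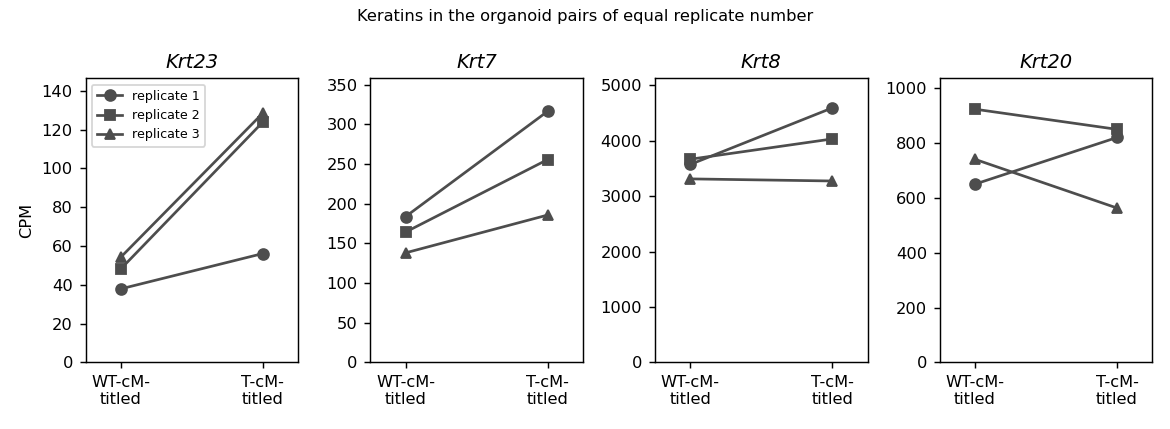
Level in CPM of Krt23, Krt7, Krt8 and Krt20 in the organoid libraries, with lines joining libraries of equal replicate number. All 3 lines rise towards the T-cM-titled side for Krt23 and Krt7, 2 of 3 rise for Krt8 and 1 of 3 rises for Krt20.

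The tumoroids differed from the organoids in all 10 keratins, of which 7 were higher and 3 were lower by edgeR. DESeq2 and limma voom each gave 6 higher and 3 lower, where Krt5 did not pass by voom and had no adjusted p in DESeq2, and on TPM with a pseudocount of 1 neither Krt5 (0.0599) nor Krt8 (0.331) passed. The test was over all 9 libraries, against the mean of both organoid groups, so it does not depend on the conflicting medium labels. Of all genes, 29.6% were higher and 20.8% lower by the same rule, against 47.4% and 12% on TPM with a pseudocount of 1, so that every share of all genes given below depends on the scale. Of the 10 keratins, 6 lay above every organoid in every tumoroid (25.6% of all genes) and 3 lay below (20.2% of all genes). The median log2 difference was 1.68 for the 10 keratins and 0.16 for all genes, unchanged with Krt17 set to its bound over the floor. Krt14, Krt5, Krt4 and Krt17, which entered the test through the tumoroids alone, are 4 of the 7 higher keratins. They are also among the 6 that lay above, beside Krt18 and Krt7. Neither these counts nor the median therefore describes the 10 keratins as a whole.

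Krt20 fell most. It was at 819, 849 and 562 CPM in T-cM-titled and 649, 922 and 740 CPM in WT-cM-titled organoids, and at 0.816, 3.12 and 7.69 CPM in tumoroids 1, 2 and 3. No tumoroid reached the organoid range, and Krt20 was lower by a log2 difference of −7.59 (SE 0.71, adjusted p = 2.42e-05 by edgeR), which is 193-fold. Without tumoroid 3, the highest of the tumoroids, the difference was −8.57. The summed enterocyte markers, at 45.7 to 324 TPM in tumoroids and 25450 to 56430 TPM in organoids, were lower in the same libraries, and their part in the fall of Krt20 was not tested.

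Krt19, the other abundant type I keratin of organoids, was at 1139, 1119 and 1080 CPM in tumoroids 1, 2 and 3 against 2178 to 2741 CPM in organoids. It was lower by a log2 difference of −1.11 (SE 0.16, adjusted p = 0.000294), or 2.17-fold, and the tumoroids agreed closely with each other.

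Krt18 moved the other way. It was at 1461, 1065 and 1584 CPM in tumoroids 1, 2 and 3 against 410 to 723 CPM in organoids. Every tumoroid lay above every organoid, and Krt18 was higher by 1.38 on the log2 scale (SE 0.20, adjusted p = 0.000346).

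Krt8, its partner and genomic neighbour, was at 2146, 2197 and 2336 CPM in tumoroids and at 3274 to 4593 CPM in organoids, without overlap. The log2 difference was −0.75 (SE 0.17, adjusted p = 0.00535), but the size of this fall depended on the scale. In TPM, Krt8 was at 3893, 4541 and 4633 in tumoroids and at 4193 to 6553 in organoids, and the groups overlapped (log2 difference −0.22, adjusted p = 0.331 by limma). The median of all genes lay at 0.16 on the CPM scale and 0.52 on the TPM scale, and relative to that median Krt8 differed by −0.91 and −0.73. Krt8 shares 16.9% of its 100-base words with the pseudogene Krt8-ps, which had only 65 to 156 counts per library.

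Krt7 was at 644, 810 and 746 CPM in tumoroids 1, 2 and 3 against 138 to 316 CPM in organoids. It was higher by 1.86 on the log2 scale (SE 0.18, adjusted p = 2.81e-05), without overlap. Krt7 was thus higher in the T-cM-titled than in the WT-cM-titled organoids and higher again in tumoroids. The comparisons share the organoid libraries.

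Krt23 was at 180, 97.6 and 311 CPM in tumoroids 1, 2 and 3. Tumoroid 2 lay below T-cM-titled replicates 2 and 3, at 124 and 129 CPM, and above the other organoids. Krt23 was higher than in all organoids by 1.50 on the log2 scale (SE 0.35, adjusted p = 0.00515), but against the T-cM-titled organoids alone the difference was 0.93 (adjusted p = 0.0961). Against the WT-cM-titled organoids alone it was 2.07 (adjusted p = 0.00384).

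The balance between partners differed between the cultures, although no test was run on ratios. The ratio of Krt8 to Krt18, both in TPM, was 4.93, 6.10 and 6.19 in T-cM-titled organoids and 5.02, 5.71 and 5.43 in WT-cM-titled organoids, replicates 1, 2 and 3. In tumoroids it was 1.14, 1.60 and 1.14. The tumoroid values lay far below all 6 organoids. Krt18 made up 27.4 to 33.9% of the TPM of the 10 keratins in tumoroids and 7.92 to 10.2% in organoids, while Krt20 went from 7.93 to 11.4% in organoids to 0.0138 to 0.115% in tumoroids.

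The sum of the 10 keratins changed little in comparison. It was 1.30, 1.14 and 0.878% of all TPM in T-cM-titled organoids, 1.05, 1.01 and 0.867% in WT-cM-titled organoids and 1.01, 1.04 and 1.24% in tumoroids, and the ranges overlapped. Krt8, Krt18 and Krt19 together held 86.7 to 92.9% of it in every library. The ratio of summed type II to summed type I TPM was near 1 in organoids, with means of 1.01 ± 0.05 and 0.976 ± 0.032 (SD, n = 3) for the T-cM-titled and WT-cM-titled groups. In tumoroids it was 0.731, 0.942 and 0.706. The tumoroids lay below all organoids in TPM, whereas from counts not divided by length the mean was 1.11 in tumoroids against 1.07 and 1.02, the opposite order. With Krt7 set to the length of its coding transcript, an alternative chosen after seeing the data, the tumoroid mean was 0.837 in place of 0.793. Tumoroid 2 then had a ratio of 1 and lay within the organoid range of 0.965 to 1.07, so the tumoroids no longer lay below all organoids.

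**Figure D3:**
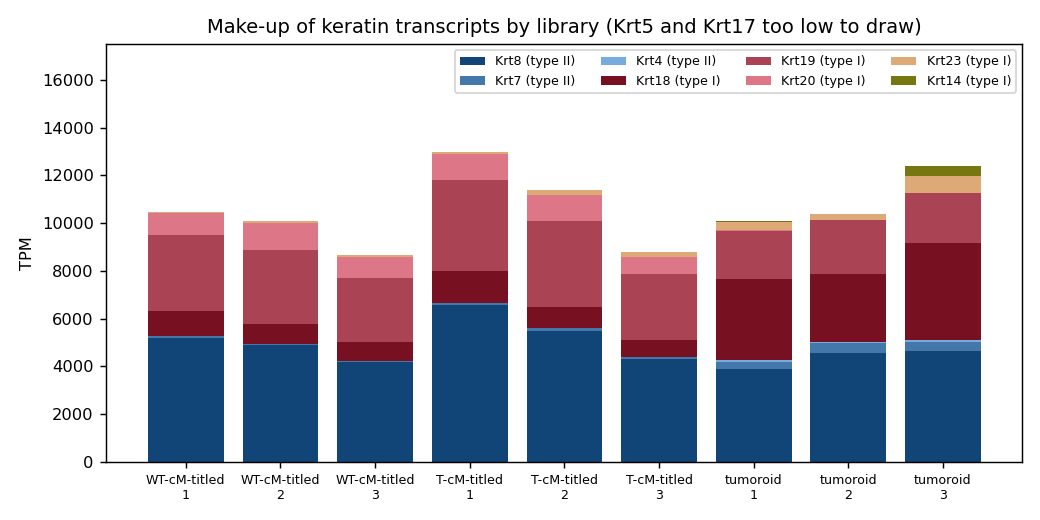
Stacked TPM of the keratins in each library, type II in blue and type I in other colours. The bars have similar heights, Krt18 is the part that widens in tumoroids and Krt20 is not visible there.

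**Figure D4:**
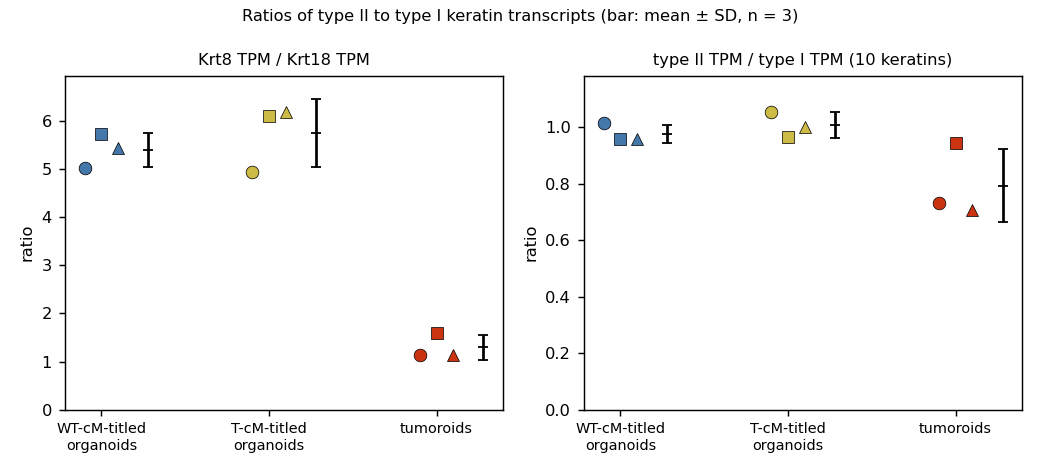
Ratio of Krt8 to Krt18 (left) and of summed type II to type I keratins (right), both from TPM, with a point for each library and mean ± SD (n = 3) beside it. The Krt8 to Krt18 ratio is 1.14 to 1.60 in tumoroids and 4.93 to 6.19 in organoids.

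The 4 keratins of stratified epithelium were near 0 in organoids, and the tumoroids differed widely among themselves. All 4 entered the test through the tumoroids alone, so the filter chose them for at least 1 tumoroid above every organoid in TPM. The adjusted p values below therefore describe the fit and support no rise of the group. Krt4, a type II keratin of internal stratified epithelia such as oesophagus, was the most even, with 967, 956 and 1740 counts (67.3, 62.2 and 100 TPM) in tumoroids 1, 2 and 3 against 1 to 8 counts per organoid library. The ratio of the pooled counts per library size was 221.6 (95% exact interval 147 to 350, covering counting error only), and the adjusted p was 1.07e-06.

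Krt14, the type I keratin of basal cells, had 325, 107 and 5950 counts in tumoroids 1, 2 and 3, or 27.4, 8.44 and 416 TPM. Tumoroid 3 alone held most of these reads. The pooled ratio to organoids was 522 (326 to 897) with all tumoroids and 56.4 (34.8 to 97.7) without tumoroid 3, and Krt14 passed in both settings (adjusted p = 0.000206 and 1.4e-05).

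Krt5, the type II partner of Krt14 in basal cells, had 13, 10 and 508 counts in tumoroids 1, 2 and 3, or 0.88, 0.63 and 28.5 TPM. The ratio was 36.9 (23.7 to 61.0) with all tumoroids and 2.55 (1.34 to 4.90) without tumoroid 3. Krt5 reached 1 TPM in tumoroid 3 alone. It passed with all libraries (adjusted p = 0.00352) but not without tumoroid 3 (0.0674), not by limma voom (0.073) and not on TPM with a pseudocount of 1 (0.0599), and DESeq2 gave it no adjusted p. Its level was below that of Krt14 in each tumoroid, so that the pair was uneven in TPM.

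Krt17, a type I keratin of skin appendages and of wounded or activated epithelium, had 1, 17 and 55 counts in tumoroids 1, 2 and 3 and none in organoids. Tumoroid 1 was below the floor of 3 counts. The mean tumoroid level was at least 4.20-fold higher than the floor of the shallowest organoid library, and at least 1.66-fold without tumoroid 3 (adjusted p = 0.012 with all libraries and 0.0305 without tumoroid 3).

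The other 44 keratin genes of the table were largely silent, with 32 below the filter. Of the 12 tested, 0 passed between the organoid groups by edgeR or limma voom, while DESeq2 gave no adjusted p for 11 of the 12. At an unadjusted p under 0.05 there were 0 of the 12, beside 3568 of all 16208 genes. In tumoroids 4 of the 12 (33.3%) were higher and none lower by edgeR, 2 and none by DESeq2 (which gave no adjusted p for Krt16 and Krt90) and 4 and none by limma voom, beside 29.6% of all genes higher and 20.8% lower. Of the 4, Krt16, Krt84 and Krt90 reached 1 TPM in tumoroids alone, so the filter let them in only because at least 1 tumoroid exceeded every organoid. Krt80 did not depend on the tumoroids to pass the filter. Krt80, a type II keratin linked to desmosomes, was at 19.4, 37.5 and 48.6 TPM in tumoroids and 0.57 to 2.2 TPM in organoids (log2 difference 4.09, adjusted p = 2.98e-05). The TPM of Krt80 corresponds to a length of 1774 bases, against 3919 for its longest coding transcript in the annotation release used here. The methods name an earlier release for the counts. If reads were counted over a longer gene than the TPM assume, its level is a high estimate beside other keratins, which cannot be told here. Krt16, a type I keratin of activated epidermis, was at 2.84, 0.98 and 170 TPM in tumoroids 1, 2 and 3, with a pooled ratio to organoids of 615 (263 to 1896) and of 18.2 (7.19 to 59.0) without tumoroid 3. Krt16 shares 24.3% of its 100-base words with Krt14 and Gm11597, so part of its reads is uncertain.

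Krt90 and Krt84 had 2 counts each over all organoids and 393 and 86 counts over the tumoroids, with ratios of 273 (75.2 to 2265) and 59.8 (16.1 to 502). Without tumoroid 3 the ratio of Krt90 was 78.8. Tumoroid 1 held 47 of the 86 counts of Krt84, whose ratio was 37.8 (9.79 to 323) without it, and both organoid counts lay in 1 library of replicate 3. The fitted log2 difference of Krt84 was 6.15 with all libraries (adjusted p = 0.00312), 5.38 without tumoroid 1 and 7.60 without organoid replicate 3. Krt6a and Krt6b, stress-induced type II keratins, were highest in tumoroid 3. They share 34% and 30.6% of their 100-base words with each other and with Gm5414 and Gm5478, and Krt6a also with Krt5, so part of their reads is uncertain. Krt6b had 79 counts there and none in the other 8 libraries, and Krt6a had a ratio of 9.17 (6.10 to 14.3) with all tumoroids and 0.657 (0.258 to 1.49) without tumoroid 3. Krt12, Krt78 and Krt87 had ratios of 2.04, 4.03 and 1.33, and 0.661, 0.689 and 1.18 without tumoroid 3. Krt10, Krt15, Krt79 and these 5 did not pass.

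Other genes of stratified epithelium were measured beside them. Of the 13 tested of 18 listed, 9 were higher and 1 was lower in tumoroids by edgeR, beside 29.6% of all genes higher and 20.8% lower. DESeq2 and limma voom each gave 7 higher and 1 lower, where Dmkn and Trp63 did not pass by voom, and Cnfn, Krtdap and Trp63 had no adjusted p in DESeq2. Of the 13, 7 reached 1 TPM in tumoroids alone, among them 6 of the 9 that were higher. Such genes were tested only because at least 1 tumoroid exceeded every organoid in TPM, so neither the count nor the median describes the list as a whole. The median log2 difference of the 13 was 5.27, or 2.98 with the 3 genes at 0 in organoids set to their bound over the floor, beside 0.16 over all genes. Lor, Lgals7 and Ly6d were the 3 higher genes that also reached 1 TPM in an organoid library. Lgals7 was at 0.96, 1.95 and 7.69 TPM in tumoroids 1, 2 and 3 and 0.14 to 1.08 TPM in organoids, which overlapped. Its log2 difference of 2.42 (adjusted p = 0.0212) was 1.15 without tumoroid 3 (0.21), and it did not pass without organoid replicate 1 (0.0601) or 3 (0.0849) either. Tgm1, the transglutaminase of the cornified envelope, was at 4.89, 4.29 and 18.2 TPM in tumoroids 1, 2 and 3 and at most 0.28 TPM in organoids (log2 difference 5.27, adjusted p = 3.49e-05, and 4.28 without tumoroid 3). Lor, a cornified envelope protein, was at 10.9, 89.1 and 52.5 TPM (5.97, adjusted p = 9.48e-05, and 5.33 without tumoroid 2), and Sbsn was higher by 4.56 (adjusted p = 7.65e-05, and 3.53 without tumoroid 3). Sfn, the one gene that was lower, differed by −1.60 (adjusted p = 0.00133).

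Among the tumoroids, tumoroid 3 had the highest TPM for 37.1% of all tested genes. Of the 13 tested genes of this list, 12 were highest there and Lor in tumoroid 2, but Ivl, Krtdap and Trp63 reached 1 TPM in tumoroid 3 alone, so that the filter fixed their order. Of the 12 other keratins tested, 10 were highest in tumoroid 3 and Krt84 and Krt87 in tumoroid 1, and the filter fixed the order of Krt12, Krt6a, Krt6b and Krt78 in the same way. Neither count is therefore a result about its list. Trp63, Ly6d and Dmkn are described as examples chosen after their values were seen. Trp63, the transcription factor of basal cells, was at 0.12, 0.05 and 15.6 TPM in tumoroids 1, 2 and 3. Ly6d was at 332, 137 and 2852 TPM and Dmkn at 12.1, 2.28 and 162 TPM. These 3 were highest in the library with the most Krt14, Krt16 and Krt5. The filter fixed the order of Trp63 and Krt5 and the examples were picked by their values, so this match is no result. The log2 difference from organoids was 8.32 for Trp63, 5.40 for Ly6d and 6.27 for Dmkn with all tumoroids, and 2.45, 3.21 and 3.29 without tumoroid 3. The same library had the highest sum of smooth muscle and of immune markers, and their part was not tested.

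**Figure D5:**
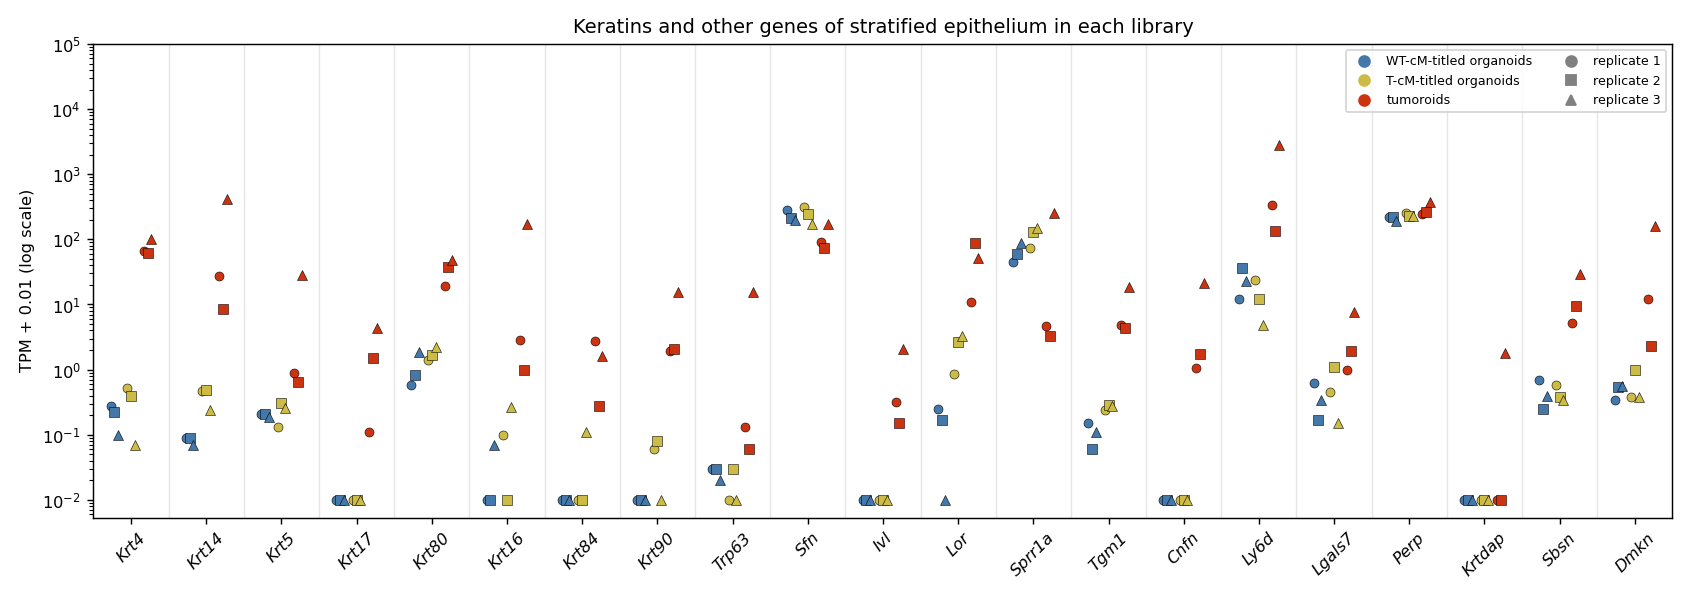
Level as TPM plus 0.01 on a log axis, in each library, of the 4 stratified keratins, the 4 other keratins that passed in tumoroids and all 13 tested genes of the stratified list, coloured by group, with the symbol giving the replicate number. Tumoroid 3 (triangles) is the highest tumoroid for each gene drawn except Lor, highest in tumoroid 2, and Krt84, highest in tumoroid 1.

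Between the organoid groups the stratified list showed 2 higher genes and 0 lower of 13, beside 5.03% of all genes higher and 5.05% lower. At an unadjusted p under 0.05 there were 2 and 1, beside 3568 of all 16208 genes in either direction. DESeq2 gave 1 and 0, with no adjusted p for 9 of the 13, Lor among them. Lor was at 0.84, 2.63 and 3.32 TPM in T-cM-titled replicates 1, 2 and 3 and at 0.24, 0.16 and 0 TPM in the WT-cM-titled ones, with a fitted log2 difference of 4.11 (adjusted p = 3.07e-05). Sprr1a, a precursor of the cornified envelope, was at 73.0, 130 and 151 TPM against 45.1, 59.7 and 86.7 TPM (0.86, adjusted p = 1.97e-06), and its groups overlapped although each pair rose. Neither passed without replicate 2 (0.319 and 0.204), where Lor and Sprr1a differed by 4.18 and 0.73. Lor was at 2.93 without replicate 3 and 5.26 without replicate 1.

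Keratin filaments are anchored by the plakins and plakophilins of desmosomes. Of 18 linker genes tested of 22 in the table, 2 were higher and 1 was lower between the organoid groups, beside 5.03% of all genes higher and 5.05% lower. Pkp4 was at 50.4, 50.0 and 46.9 TPM in T-cM-titled replicates 1, 2 and 3 against 41.2, 33.4 and 30.1 TPM (log2 difference 0.49, adjusted p = 0.000183). Dsp, the desmoplakin that ties keratin filaments to desmosomes, was at 145, 159 and 145 TPM against 131, 115 and 90.4 TPM (0.42, adjusted p = 0.000788). Pkp1 was lower by 0.41 (adjusted p = 0.00338) and lower in 3 of 3 pairs. None of the 3 passed without replicate 2, where Pkp4, Dsp and Pkp1 differed by 0.45, 0.40 and −0.35 on the log2 scale. Dsp did not pass without replicate 3 either (log2 difference 0.30, adjusted p = 0.0855).

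In tumoroids 8 of the 18 linker genes (44.4%) were higher and 3 (16.7%) were lower, beside 29.6% and 20.8% of all genes, and on TPM with a pseudocount of 1 there were 10 higher and 1 lower, beside 47.4% and 12% of all genes. The 18 had a median log2 difference of 0.27 beside 0.16 over all genes. Of the 18, 2 reached 1 TPM in tumoroids alone, among them Dsg3. Ppl, a plakin of the cornified envelope, was at 44.0, 109 and 99.0 TPM in tumoroids 1, 2 and 3 and 14.3 to 21.4 TPM in organoids (1.72, adjusted p = 0.000117). Dsg3, the desmosomal cadherin of basal epidermal cells, was at 12.6, 56.0 and 12.7 TPM against 0.08 to 0.89 TPM (5.22, adjusted p = 0.000108), and at 4.19 without tumoroid 2. Dsg3, like Lor, was highest in tumoroid 2, and of the 18 linkers 10 were highest in tumoroid 3 and 8 in tumoroid 2, beside 37.1% and 38.8% of all tested genes. Pkp4 was higher by 0.90 (adjusted p = 0.000283), and Dst, Pkp2 and Pkp3 differed by −1.51, −0.81 and −0.49 (adjusted p = 0.000341, 0.000123 and 0.00909).

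Among 7 other intermediate filament genes tested of 15 listed, 0 were higher and 2 were lower between the organoid groups, beside 5.03% of all genes higher and 5.05% lower. The 2 were Bfsp1 (−0.93, adjusted p = 0.00171) and Lmnb1 (−0.32, adjusted p = 0.013). By DESeq2 0 were higher. At an unadjusted p under 0.05, 0 were higher and 3 lower, beside 3568 of all 16208 genes in either direction. Bfsp1 did not pass by limma voom. Neither Bfsp1 nor Lmnb1 passed without replicate 2 (log2 differences −0.95 and −0.27, adjusted p = 0.431 and 0.446), nor did Bfsp1 without replicate 3 (−0.58, 0.217). In tumoroids the neurofilament gene Nefh was higher, at 1.6, 2.5 and 4.4 TPM against at most 0.18 TPM (log2 difference 4.81, adjusted p = 8.45e-05), and it too reached 1 TPM in tumoroids alone. Nefm was lower by a difference of −2.05 (adjusted p = 0.00311), and so was Bfsp1 with −1.78 (adjusted p = 0.043), which did not pass without tumoroid 2 (0.0909), tumoroid 3 (0.0972) or organoid replicate 1, 2 or 3 (0.0842, 0.107 and 0.117). Without tumoroid 1 the log2 difference of Bfsp1 was −3.36 (adjusted p = 0.000249).

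The genes whose log2 CPM followed each keratin most closely over the 9 libraries were sought among 9352 tested non-keratin genes of at least 10 CPM on average. They were S100a14 and Anxa1 for Krt18 (Pearson's r 0.992 and 0.986), Ykt6 and Slc31a1 for Krt20 (0.998 and 0.997), Elovl6 and Vps4a for Krt19 (0.992 and 0.990), and Zfp410 and Cpt1a for Krt8 (0.979 and 0.969). Ehd2 and Ano1 lay closest to Krt7 (0.990 and 0.985), Zfp358 and Ctsd to Krt23 (0.950 and 0.945), and Samd5 and Crip2 to Krt4 (0.994 and 0.991). For Krt14, Krt5 and Krt17, with few or no counts in organoids, they were Arhgef3 and Hid1, Rpl3-ps1 and Ttc3, and Ids and Itpr2, with r between 0.976 and 0.992. These are descriptions over 3 groups of libraries, in which the contrast of tumoroids with organoids, or 1 library, can set most of a value. Krt5 was at 0.589, 0.372 and 17.45 CPM in tumoroids 1, 2 and 3 and at most 0.271 CPM in organoids. For Krt23 the tumoroids and organoids overlapped.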

How the data were processed

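RNA was measured in 9 libraries, and groups and replicate numbers followed the titles. The authors aligned reads to mm10 with STAR and deposited 2 tables, of raw counts and of TPM. How the authors computed TPM and with which lengths is not given in the sources used here; from the values, the deposited TPM relate counts to gene length at an equal total in each library. The counting tool and its strand setting are not given in the sources used here, and Krt8, Krt7 and Krt5 overlap genes on the other strand. Keratin genes were matched by symbol. The members and gene lists were chosen with earlier results of these data known. Named genes were all 10 keratins, other keratins with a TPM of at least 1, up to 3 genes of smallest p per list and direction, and the 2 genes most correlated with each keratin. Trp63, Ly6d, Dmkn and Lgals7 were named outside this rule, as were genes listed only for the filter or for a missing adjusted p.

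Tests covered genes that reached 1 TPM in any library, in R 4.3.3 with edgeR 4.0.16 (TMM factors, quasi-likelihood test in its older form), with Benjamini-Hochberg adjustment over all of them. The organoid contrast had replicate number as a block, after the sample effect in the study's model, and libraries of equal number deviated together (r = 0.546, 0.338 and 0.547). The tumoroid contrast had none. CPM used TMM factors, and log2 CPM a prior count of 2. Intervals are exact binomial at 95% and, like the floor of 3 counts, cover counting error only. The method was tested on simulated data. Alternatives were RLE and upper-quartile factors, DESeq2 1.42.0, limma 3.58.1 with voom or on log2 TPM, the newer quasi-likelihood form, other filters, a fold threshold, the block, other controls and each replicate left out. Positions are from Gencode release 21 and promoters from RefSeq. One immune marker is not reported here.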

Additional observations from a re-analysis of the deposited data

How the results depend on the processing

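Of the keratin differences under the alternatives, 280 kept their side of the threshold and direction, 14 lost the call, 1 gained it and 3 changed sign (all between organoid groups: with a replicate left out, Krt18 ranged from −0.070 to 0.22, Krt5 from −0.040 to 0.45 and Krt20 from −0.25 to 0.11). The causes were not tested.

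Between the organoid groups, 816 genes were higher and 818 lower. DESeq2 gave 441 and 342, limma voom 314 and 267, the newer quasi-likelihood form 503 lower, the fold threshold 109 and 70, and TPM with either pseudocount 0 and 0. Without the replicate block the pairing was ignored and 0 and 0 genes passed, with 0 keratins, 0 linkers in either direction, 0 stratified genes and 0 other filaments. Leaving out each replicate gave 1 to 1355 higher and 0 to 1517 lower genes, 0 to 2 keratins higher and 0 to 1 lower, 0 to 2 linkers higher and 0 to 3 lower, 0 to 2 stratified genes higher and 0 to 1 lower, and 0 to 2 other filaments lower. On TPM no keratin, linker, stratified gene or other filament passed (0 each), and with the fold threshold 1 keratin, 0 linkers, 1 stratified gene and 0 other filaments did. DESeq2 gave 1 stratified gene higher, voom 1 other filament lower, and no TPM filter 1 stratified gene lower.

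In tumoroids, TPM with a pseudocount of 1 gave 7675 genes higher and 1939 lower, with 0.1 it gave 7748 and 2018, and the fold threshold left 1963 lower. The replicate block changed no keratin call there. Linkers were 4 higher and 1 lower with the fold threshold and 1 lower on TPM. Other keratins higher were 2 by DESeq2 and by filterByExpr, which drops genes of few counts, and 8 without a filter. DESeq2 gave no adjusted p for some genes of few counts, Lor between the organoid groups and Krt16 and Krt90 in tumoroids among them, which is not a lost call. Stratified genes higher were 5 by filterByExpr, and lower were 1 to 3 with a tumoroid left out. Other filaments higher were 2 on TPM, with filterByExpr, without a filter and with upper-quartile factors. Other filaments lower were 1 with upper-quartile factors, T-cM-titled organoids as control and organoid pairs summed, and 1 to 2 with a replicate left out. From counts not divided by length, the keratins were 0.743, 0.667 and 0.692% of the total in T-cM-titled organoids, WT-cM-titled organoids and tumoroids, the type II to type I ratio was 1.07, 1.02 and 1.11, and the Krt8 to Krt18 ratio was 7.40, 6.95 and 1.67. With at most 8 counts per organoid library, and 0 for Krt17, depth limited any difference of Krt4, Krt5, Krt14 and Krt17 between organoid groups.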
